A study of Mus musculus with 5 samples.

Results

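The genes described here are the interleukins and interleukin receptors outside the IL-1, IL-6 and IL-17 families in the uterus of mice exposed to seminal plasma (SP) of young or aged males. They are the rows of the count table whose gene name is Il followed directly by a number, without the names that belong to those 3 families and to IL-34, and there are 42 of them among 28666 listed genes. The 42 genes are 18 cytokines, 23 receptor chains and 1 enzyme, Il4i1. By edgeR's filterByExpr, a filter on low counts, 25 of the 42 had enough reads to be tested, among 17013 tested genes in all, and the other 17 are listed below with their counts only.

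Whole uteri of ICR females aged 6 to 8 weeks were sequenced, each after caging with a vasectomized C57BL/6 male, so that every female of both groups received seminal plasma without sperm. The young-SP group comprises 3 uteri (replicates 1, 2 and 4) from matings with males of 12 to 14 weeks, and the aged-SP group comprises 2 uteri (replicates 1 and 4) from matings with males of 12 to 18 months. The uteri were collected at 3.0 dpc by the study's methods and 3.5 days after caging by the sample labels, and a further young-SP uterus that the study set aside was not analysed here. The total count per library lay between 15071914 and 16728601. All 5 myometrial, all 5 stromal and all 6 epithelial markers examined passed the filter, with summed levels of 7996 to 12305, 1533 to 2592 and 704 to 1433 CPM (reads of a gene relative to the library's TMM-scaled total), respectively. Vaginal and cervical keratins were near the limit of detection, with at most 9 reads for any of Krt5, Krt14, Krt1 and Krt13 in a library, while Dsg3, the fifth marker of this list, had 63 reads in aged-SP replicate 1, 36 in young-SP replicate 1 and 7 to 12 in the others. Over the 500 most variable genes, young-SP replicate 1 stood apart from the other young-SP uteri and lay between them and the aged-SP uteri on the first principal component.

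Interleukins are secreted proteins by which leukocytes, epithelium and stroma signal to each other, and most of the genes described here work through receptor chains coupled to JAK kinases and STAT transcription factors. Receptors are built from a chain specific for a ligand and a chain shared by several ligands: the common gamma chain (Il2rg) serves IL-2, IL-4, IL-7, IL-9, IL-15 and IL-21, the common beta chain (Csf2rb) serves IL-3 and IL-5, and Il10rb serves IL-10 and IL-22. In the uterus before and during implantation, IL-15 is known for its role in uterine NK cells, and IL-4, IL-10 and IL-13 are known as cytokines of a type 2 or regulatory response. Because whole uteri were sequenced, fewer cells of a type and less RNA per cell cannot be told apart in any of the values below.

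Il20rb, the beta chain of the receptors for IL-19, IL-20 and IL-24, was 3.16-fold higher in the aged-SP group on the scale of fitted means. Il13ra2, a receptor for IL-13 that is known mainly as a decoy, was 4.52-fold lower. Of the 19 tested receptor chains, 8 had an unadjusted p under 0.05, 5 of them with higher values after aged SP and 3 with lower values, and of the 6 tested cytokines 0 did (edgeR's quasi-likelihood test, two-sided). Over all 17013 tested genes that share was 19.0%, against 32% of the 25 tested genes described here. After Benjamini-Hochberg adjustment over all tested genes, 0 of the 25 passed the call used throughout, an adjusted p under 0.05 with an absolute log2 fold change over 1, as 0.147% of all tested genes did by edgeR, and 0 passed by limma-voom. By DESeq2's Wald test, the tool of the study's methods, 2 of them passed it, Il20rb and Il13ra2, against a background of 3.60%. By its adjusted p alone Il4ra and Il2rb passed as well, 4 of the 25 in all, as did 7.58% of the genes with an adjusted p from DESeq2. All p-values measure only the spread between these 5 uteri.

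The direction of the tested genes was mixed. Fitted log2 fold changes, given throughout as aged-SP over young-SP, were above 0 in 18 and below 0 in 7 of the 25, with a median of 0.39, against 0.01 over all tested genes. In 13 of the 25 (52%), every library of 1 group lay above every library of the other, which was so in 38.8% of all tested genes. Absolute log2 fold changes over 1 were found in 5 of the 25, and in 9.16% of all tested genes. These counts shift with single libraries: without aged-SP replicate 4, only 3 of the 25 had an unadjusted p under 0.05. The median was 0.074 without aged-SP replicate 1 and 0.18 without young-SP replicate 2.

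**Figure D1:**
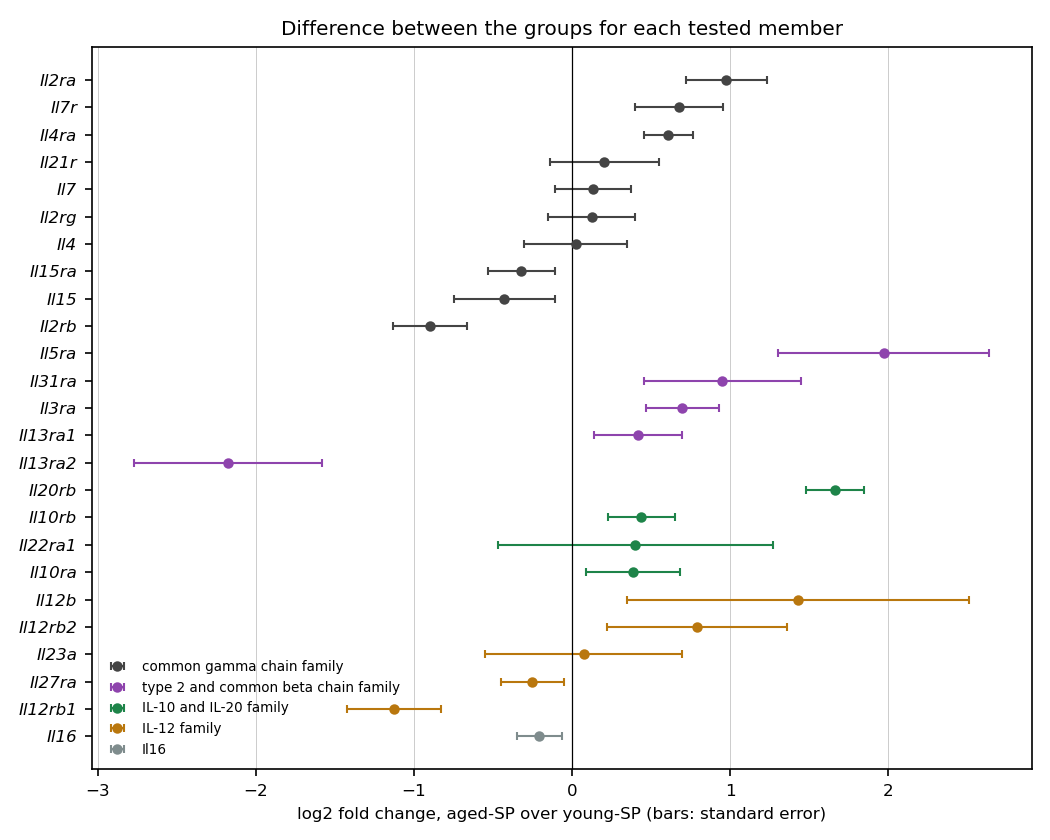
Fitted log2 fold change, aged-SP over young-SP, for each of the 25 tested genes (points) with its standard error (bars), coloured by family. Il20rb (1.66) has a short bar far from 0, Il13ra2 (-2.18) is the lowest, and the long bars of Il12b and Il22ra1 cross or approach 0.

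Levels were compared between genes only as FPKM, which is scaled to gene length and to the total count. Il13ra1 and Il4ra, which together form the type II receptor for IL-4 and IL-13, had the highest and second highest levels of the 42, with means over the groups of 18.2 and 16.2 FPKM. Il13ra2 followed with 11.8 FPKM, Il2rb with 7.04 FPKM, Il10ra with 5.95 FPKM and Il10rb with 5.35 FPKM, and these 6 were the genes above 5 FPKM. The cytokine with the highest level was Il15 (3.63 FPKM), followed by Il4 (2.39 FPKM) and Il16 (1.95 FPKM). In contrast, 23 of the 42 stayed below 1 FPKM in every library. The order was not the same in every library. Il13ra2 ranked below Il13ra1 in both aged-SP uteri and in young-SP replicate 2, and above it in young-SP replicates 1 and 4.

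**Figure D2:**
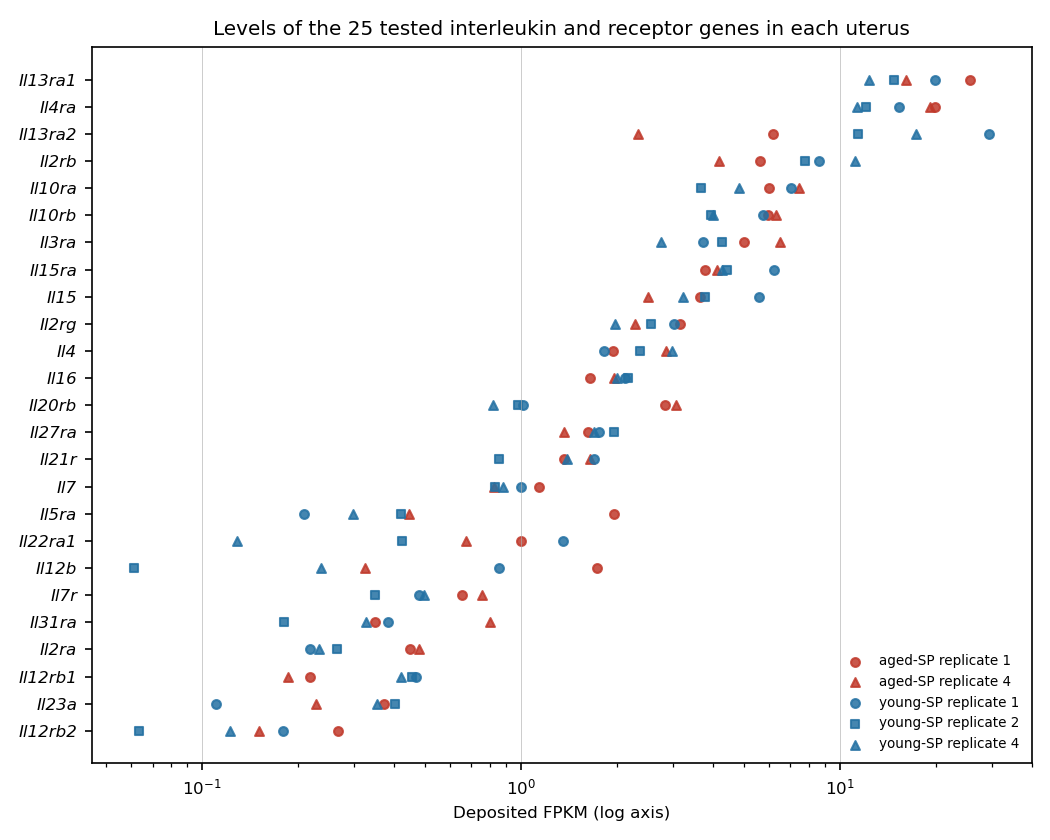
Deposited FPKM (log axis) of the 25 tested genes in each uterus, ordered by the mean over both groups, with red for aged-SP and blue for young-SP. The levels run from 18.2 FPKM for Il13ra1 to 0.17 FPKM for Il12rb2, and the red and blue points are apart for Il20rb, Il13ra2, Il2rb, Il2ra and Il12rb1, among others.

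The IL-4 and IL-13 receptors were examined first, since they include the most abundant genes and the lowest fold change. Both IL-13 receptor genes lie on the X chromosome, Il13ra1 at 36112110 to 36171259 on the plus strand and Il13ra2 at 147383476 to 147429192 on the minus strand. Their promoters are shown because the 2 genes encode receptors for the same cytokine and had fold changes of opposite sign. The stretches are the 250 bases upstream of the start in RefSeq (GRCm38.p6), chrX:36111858-36112107 on the plus strand for Il13ra1 and chrX:147429193-147429442 on the minus strand for Il13ra2, 5′ to 3′, with capitals marking TATAAA.
Il13ra1: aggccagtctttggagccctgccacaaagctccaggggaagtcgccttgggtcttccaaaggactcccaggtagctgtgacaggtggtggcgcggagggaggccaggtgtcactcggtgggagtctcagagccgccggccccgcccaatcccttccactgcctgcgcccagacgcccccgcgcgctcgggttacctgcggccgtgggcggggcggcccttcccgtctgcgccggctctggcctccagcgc
Il13ra2: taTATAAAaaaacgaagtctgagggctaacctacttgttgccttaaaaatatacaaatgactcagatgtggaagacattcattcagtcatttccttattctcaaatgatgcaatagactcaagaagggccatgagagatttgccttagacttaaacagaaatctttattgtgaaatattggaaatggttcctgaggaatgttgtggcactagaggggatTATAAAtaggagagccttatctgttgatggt
The Il13ra1 stretch held 21 CpG and was 70.8% G and C, and the Il13ra2 stretch held 1 CpG and was 36% G and C, where the median of 32851 mouse promoters was 6 CpG and 52.4%. TATAAA, searched on both strands, was found at 2 places in the Il13ra2 stretch, beginning 248 and 31 bases upstream of the start, and at none in that of Il13ra1. It occurred in 12.4% of all promoters of this length and in those of 4 of the 30 genes described here that have an entry. Neither stretch held TTCNNNGAA, a spacing that STAT proteins are known to bind, which occurred on either strand in 7.02% of all promoters.

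The level of Il13ra2 was 14.3 and 5.31 CPM in aged-SP replicates 1 and 4, and 67.6, 25.5 and 39.9 CPM in young-SP replicates 1, 2 and 4. Every aged-SP uterus lay below every young-SP uterus, although the values within each group were more than 2-fold apart. The mean was 9.79 ± 6.33 CPM (SD, n = 2) after aged SP and 44.3 ± 21.4 CPM (SD, n = 3) after young SP. The log2 fold change was -2.18 (standard error 0.59, adjusted p = 0.153 by edgeR's quasi-likelihood test), and DESeq2 gave an adjusted p of 0.00101. With each library left out in turn it ranged from -3.06, without aged-SP replicate 1, to -1.64, without aged-SP replicate 4. Of 5 stromal markers, Hoxa11, Hand2 and Pdgfra had lower values after aged SP with an unadjusted p under 0.05. That is 60% of the list, against 9.36% lower among all tested genes. The summed level of the 5 was 1533 and 1835 CPM against 1834, 2592 and 2498 CPM. The part of stromal cells in the level of Il13ra2 was not tested.

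Il13ra1, by contrast, had 95.8 and 59.8 CPM in the aged-SP uteri and 74.5, 53.9 and 46.1 CPM in the young-SP uteri, with overlap. Its log2 fold change was 0.42 (adjusted p = 0.459, edgeR's quasi-likelihood test), and it was 0.04 without aged-SP replicate 1 and 0.72 without aged-SP replicate 4. Leaving out young-SP replicate 1 gave 0.63 for this gene. The ratio of Il13ra2 to Il13ra1 in FPKM did not overlap between the groups. It was 0.242 and 0.144 in the aged-SP group and 1.48, 0.769 and 1.41 in the young-SP group. No test was run on this ratio, which reuses the values above.

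Il4ra, the chain that binds IL-4 in both types of IL-4 receptor (chromosome 7, 125552120 to 125579474, plus strand), had 121 and 115 CPM in the aged-SP uteri and 92.9, 70.9 and 68.4 CPM in the young-SP uteri. The groups did not overlap, and young-SP replicate 1 was the nearest to the aged-SP group. Its log2 fold change was 0.61 (standard error 0.15, adjusted p = 0.141 by edgeR's quasi-likelihood test), and DESeq2's adjusted p was 0.0240, with a fold change below that of the call. Without young-SP replicate 1, edgeR gave a log2 fold change of 0.75 and an adjusted p of 0.0268. An annotated gene on the opposite strand, Gm44876, overlaps 9.51% of the exonic bases of Il4ra, and the library kit does not mark strand.

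The ligands of these receptors were far less abundant. Il4 had 40 and 55 reads in the aged-SP uteri and 36, 48 and 55 in the young-SP uteri, a log2 fold change of 0.02 with a standard error of 0.33. Il13, which lies 12.7 kb from Il4 on chromosome 11, had 3 and 0 reads against 0, 0 and 0, and Il5, on the other side of Il13, had 0 and 4 reads against 0, 0 and 1. Gm12214 on the opposite strand overlaps 27.1% of the exonic bases of Il5. A count of 0 at this depth allows up to 3 reads in a library, by counting error alone, so that no difference in Il13 or Il5 was detectable. Il31ra, the specific chain of the IL-31 receptor, had 33 and 71 reads against 35, 17 and 28, and the groups overlapped. Its partner chain Osmr, which also serves oncostatin M, had 108 and 54.6 CPM against 54.2, 22.8 and 26.0 CPM (log2 fold change 1.24, unadjusted p = 0.0393 by edgeR's quasi-likelihood test, adjusted p = 0.240).

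Of the alpha chains that pair with the common beta chain, Il3ra had 15.1 and 19.3 CPM in the aged-SP uteri and 11.1, 12.4 and 8.21 CPM in the young-SP uteri. The groups did not overlap, and the log2 fold change was 0.70 (standard error 0.23, adjusted p = 0.205 by edgeR's quasi-likelihood test). Il5ra, the IL-5 receptor chain known from eosinophils, had 117 and 25 reads against 12, 25 and 16. Only aged-SP replicate 1 was high, and aged-SP replicate 4 had the same count as young-SP replicate 2. The log2 fold change of 1.97 (adjusted p = 0.212, edgeR's quasi-likelihood test) was 0.53 without aged-SP replicate 1 and 2.67 without aged-SP replicate 4. Among 5 eosinophil markers, Epx was at 0 or 1 read in every library, the summed level was 24.5 to 25.5 CPM in the aged-SP group and 12.8 to 21.5 CPM in the young-SP group, and Ear2 had the smallest p (log2 fold change 1.43, adjusted p = 0.0734 by edgeR and 6.46e-05 by DESeq2). The other tested eosinophil markers were Siglecf (log2 fold change -0.24), Prg2 (-0.06) and Ccr3 (0.10), and without Ear2 the summed level was 13.2 and 14.97 CPM in the aged-SP uteri and 9.01, 16.97 and 16.2 CPM in the young-SP uteri, which overlapped. All 5 mast cell markers had fold changes above 0, with none at an unadjusted p under 0.05, and their summed level was 59.4 and 196 CPM in the aged-SP uteri and 22.4, 48.2 and 79.6 CPM in the young-SP uteri. The part of either cell type in the values of Il3ra and Il5ra was not tested.

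**Figure D3:**
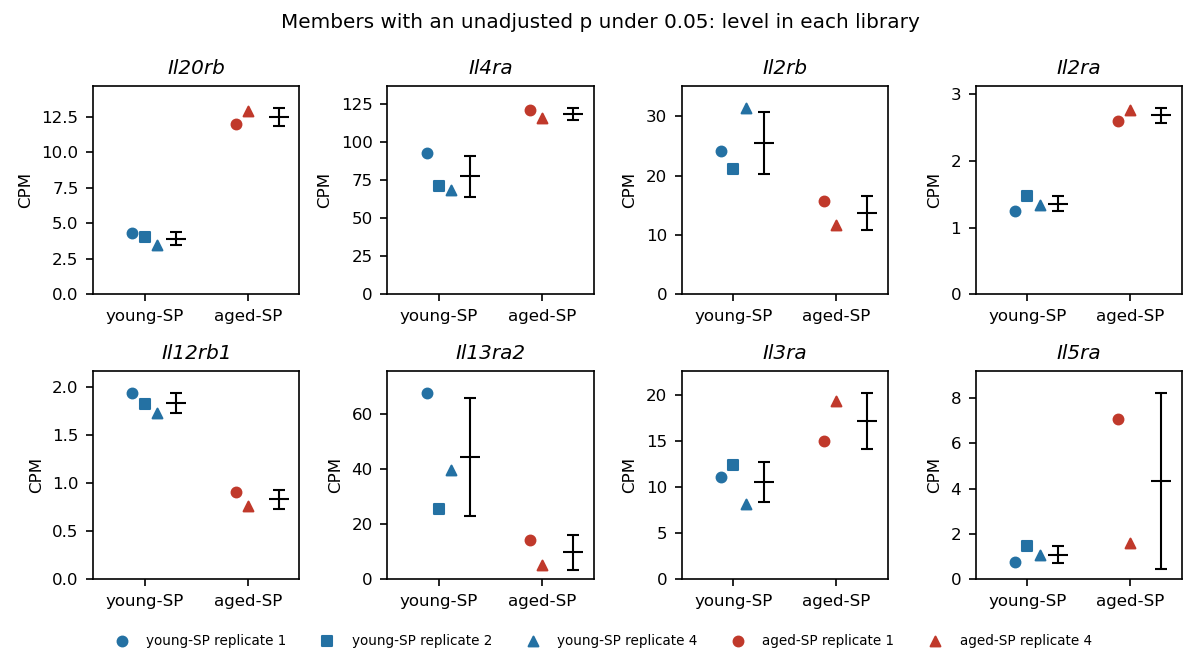
Level in CPM of the 8 genes with an unadjusted p under 0.05, 1 point per uterus, with the mean and SD of each group beside the points (n = 3 young-SP, n = 2 aged-SP). Il20rb, Il2ra and Il12rb1 have groups that lie apart with little spread. For Il2ra and Il12rb1, at 43 reads or fewer per uterus, this spread is below counting error alone. The same holds for Il20rb, at 52 to 202 reads per uterus. The aged-SP values of Il5ra (7.07 and 1.599 CPM) lie far apart, the lower of them next to the young-SP points.

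Il20rb lies on chromosome 9 (100457719 to 100486788, minus strand), and 0% of its exonic bases and 0% of its 50-base stretches are shared with another annotated gene. It had 12.03 and 12.92 CPM in the aged-SP uteri and 4.32, 4.02 and 3.47 CPM in the young-SP uteri. The groups lay apart, with a mean of 12.5 ± 0.629 CPM (SD, n = 2) after aged SP and of 3.94 ± 0.429 CPM (SD, n = 3) after young SP. At 199 and 202 reads against 69, 68 and 52, counting error alone is wider than these SDs. They thus do not show how alike the uteri were. The log2 fold change was 1.66 (standard error 0.18) with the smallest p of the 25 tested genes (0.000158, adjusted p = 0.0581 by edgeR's quasi-likelihood test), and DESeq2 gave an adjusted p of 3.22e-08. With each library left out in turn, the log2 fold change ranged from 1.57 to 1.72 and edgeR's adjusted p from 0.0238, without young-SP replicate 1, to 0.240, without aged-SP replicate 1. The study selected Il20rb from the genes it called in these same libraries and measured it by qPCR, so that its place here is not independent evidence of its direction.

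The other chains that pair with Il20rb had fewer reads. Il20ra had 5 and 4 reads in the aged-SP uteri and 1, 9 and 10 reads in the young-SP uteri, too few for a test. Il22ra1, which pairs with either Il20rb or Il10rb, had 43 and 27 reads against 56, 18 and 5, with a log2 fold change of 0.40 and a standard error of 0.87. Among the ligands, Il19 had 0 and 0 reads against 1, 2 and 2, Il20 had 1 and 0 reads against 0, 1 and 0, and Il24 had 10 and 6 reads against 7, 0 and 0. These 3 genes and Il10 are neighbours on chromosome 1. None of the ligands could be tested.

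Epithelial markers are given beside Il20rb because its receptor is known from epithelium. The ratio of Il20rb in FPKM was taken to each of 5 epithelial markers, and the groups did not overlap for Krt8, Krt18, Krt19 and Cdh1. For example, the ratio to Cdh1 was 0.0572 and 0.0668 in the aged-SP uteri and 0.0189, 0.0311 and 0.0203 in the young-SP uteri. The ratio to Epcam overlapped, at 0.0223 and 0.0266 against 0.00745, 0.0254 and 0.0193. These ratios reuse the values of Il20rb, which did not overlap themselves, and no test was run on them. Of the 6 epithelial markers, 1 was higher at an unadjusted p under 0.05 (16.7%, against 19.0% of all tested genes). Their summed level was 1105 and 1171 CPM against 1433, 704 and 867 CPM. The summed level of uterine gland markers was 3949 and 2935 CPM against 506, 26.5 and 31.4 CPM, a difference carried by Prss28 and Prss29, with 0 of 4 tested at an unadjusted p under 0.05. The part of glands or epithelium in the level of Il20rb was not tested.

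Il10ra, the chain specific for IL-10, had 21.2 and 26.2 CPM in the aged-SP uteri and 24.7, 12.6 and 17.02 CPM in the young-SP uteri, and the groups overlapped. The fitted log2 fold change of Il10ra was 0.39, and 0.66 without young-SP replicate 1 (unadjusted p = 0.0261, adjusted p = 0.158 by edgeR's quasi-likelihood test). Il10rb had 22.9 and 24.1 CPM against 22.1, 14.7 and 15.4 CPM, without overlap but with a gap to young-SP replicate 1 that was smaller than the spread within either group. Its log2 fold change was 0.44 (adjusted p = 0.333 by edgeR's quasi-likelihood test) and 0.63 without young-SP replicate 1, and 14.9% of its exonic bases overlap Gm21970 on the same strand. The ratio of Il20rb to Il10rb in FPKM was 0.475 and 0.485 in the aged-SP uteri and 0.177, 0.248 and 0.205 in the young-SP uteri. The cytokine Il10 had 3 and 3 reads against 9, 3 and 1. Il22 had 4 and 0 reads against 0, 0 and 0, and 41% of its 50-base stretches occur in Iltifb, a near-identical copy. The soluble IL-22 receptor Il22ra2 had 1 and 3 reads against 3, 0 and 1.

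The common gamma chain family held 14 genes, of which 10 were tested. Of these, 3 had an unadjusted p under 0.05 (30%, against 19.0% of all tested genes). Il4ra and Il2ra were higher and Il2rb was lower in the aged-SP group. The alpha and beta chains of the IL-2 receptor thus had fold changes of opposite sign. Il2ra, which raises the affinity of the receptor and is also called CD25, had 43 and 43 reads in the aged-SP uteri against 20, 25 and 20 in the young-SP uteri. Its log2 fold change was 0.98 (standard error 0.25, adjusted p = 0.145 by edgeR's quasi-likelihood test), and DESeq2's adjusted p was 0.197. The level was low, with a mean of 0.352 FPKM over the groups. Il2ra and Il15ra are neighbours on chromosome 2, 12.1 kb apart, and the fitted fold change of Il15ra was below 0.

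Il2rb, the chain shared by the receptors for IL-2 and IL-15, had 15.8 and 11.6 CPM in the aged-SP uteri and 24.2, 21.2 and 31.4 CPM in the young-SP uteri. All aged-SP values were below all young-SP values. Its log2 fold change was -0.90 (standard error 0.23, adjusted p = 0.145 by edgeR's quasi-likelihood test), DESeq2 gave an adjusted p of 0.0186, and the range with each library left out was -1.14 to -0.70. Il2rb is known from NK cells and T cells, and markers of both are given beside it. All 9 of the NK cell and cytotoxic granule markers had fold changes below 0, and 2 of them, Ncr1 (-0.94) and Eomes (-1.02), had an unadjusted p under 0.05. That share was 22.2%, against 19.0% of all tested genes. The summed level of the 9 was 50.4 and 33.3 CPM against 64.9, 45.0 and 93.7 CPM, and it overlapped between the groups. Of 6 T cell markers, Cd3g and Cd3d (33.3% of the list) were lower at an unadjusted p under 0.05. Cd4 and Trac were on the other side of 0, and the summed level of the 6 was 16.7 and 19.4 CPM against 24.5, 21.5 and 19.6 CPM. The ratio of Il2rb to Ncr1 in FPKM was 0.880 and 1.11 in the aged-SP uteri and 1.10, 0.863 and 0.887 in the young-SP uteri, so that this ratio overlapped. Ncr1 was the only NK cell marker used for a ratio, and its fold change was close to that of Il2rb. Other markers of the list changed less, such as Klrk1 (log2 fold change -0.19). The part of NK cells or T cells in the level of Il2rb was not tested. The 5 general leukocyte markers had 0 genes at an unadjusted p under 0.05 in either direction. The same was true of the B cell, dendritic cell, neutrophil, myometrial, endothelial and vaginal and cervical lists. Of these, only 2 of 4 B cell genes and 1 of 5 vaginal and cervical genes were tested.

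Il2rg had 7.62 and 5.44 CPM in the aged-SP uteri and 7.26, 5.97 and 4.74 CPM in the young-SP uteri, and the groups overlapped. Its log2 fold change was 0.12 with a standard error of 0.27, and 30.5% of its exonic bases overlap Gm20489 on the same strand. The ratio of Il2rb to Il2rg in FPKM was 1.78 and 1.84 in the aged-SP uteri and 2.86, 3.05 and 5.67 in the young-SP uteri.

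IL-15 is presented on its own alpha chain, and the genes of both had similar levels, 3.63 FPKM for Il15 and 4.46 FPKM for Il15ra. Il15 had 8.34 and 5.69 CPM against 12.7, 8.34 and 7.34 CPM, with a log2 fold change of -0.43 (adjusted p = 0.507, edgeR's quasi-likelihood test) that was -0.17 without young-SP replicate 1. Il15ra had 16.9 and 18.4 CPM against 27.8, 19.3 and 19.1 CPM, with a log2 fold change of -0.32 (adjusted p = 0.455, edgeR's quasi-likelihood test) that was -0.13 without young-SP replicate 1. The groups overlapped for Il15, and for Il15ra they were separated by less than the spread within either group.

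Il7r, the chain shared by the receptors for IL-7 and thymic stromal lymphopoietin, had 51 and 55 reads in the aged-SP uteri and 36, 27 and 35 reads in the young-SP uteri. On the log2 scale the groups differed by 0.68 (standard error 0.28, adjusted p = 0.273 by edgeR's quasi-likelihood test). The cytokine Il7 had 108 and 73 reads against 91, 78 and 75 and a log2 fold change of 0.13. Il21r, 24.0 kb from Il4ra on chromosome 7, had 76 and 86 reads against 91, 47 and 70, and the groups overlapped. The remaining genes of the family were near the limit of detection. Il2 had 0 and 0 reads against 0, 1 and 1, Il21 had 0 and 0 against 0, 1 and 0, Il9 had 0 and 0 against 0, 1 and 2, and its receptor Il9r had 3 and 4 against 2, 5 and 0.

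In the IL-12 family, 5 of 8 genes were tested and only Il12rb1 had an unadjusted p under 0.05. That is 20% of the 5, near the 19.0% of all tested genes. Il12rb1, the chain shared by the IL-12 and IL-23 receptors, had 15 and 12 reads in the aged-SP uteri and 31, 31 and 26 reads in the young-SP uteri (chromosome 8, 70808449 to 70821424, plus strand). The groups did not overlap, with a mean of 0.837 ± 0.0985 CPM (SD, n = 2) after aged SP and of 1.84 ± 0.102 CPM (SD, n = 3) after young SP. At so few reads, counting error alone is wider than these SDs, so that they do not show how alike the uteri were. The log2 fold change was -1.12 (standard error 0.30, adjusted p = 0.147 by edgeR's quasi-likelihood test), between -1.25 and -1.01 with each library left out. DESeq2's adjusted p was 0.211.

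The partners of Il12rb1 had few reads. Il12rb2, which completes the IL-12 receptor, had 17 and 9 reads against 11, 4 and 7, and 40% of its exonic bases overlap Serbp1 on the opposite strand, so that its reads and those of Serbp1 cannot be fully told apart. Il23r, which completes the IL-23 receptor and is its neighbour on chromosome 6, had 6 and 3 reads against 15, 6 and 5. Il12b, the subunit shared by the cytokines IL-12 and IL-23, had 57 and 10 reads against 27, 2 and 7, a log2 fold change of 1.43 with a standard error of 1.08. Aged-SP replicate 1 alone was high, and without it the log2 fold change was -0.24. The other subunits were Il12a, with 2 and 3 reads against 0, 1 and 2, and Il23a, with 14 and 8 reads against 4, 15 and 12. Il27 had 4 and 2 reads against 4, 1 and 2. Its receptor Il27ra had 5.74 and 4.80 CPM against 6.19, 6.68 and 5.94 CPM, without overlap, and a log2 fold change of -0.25 (adjusted p = 0.530, edgeR's quasi-likelihood test).

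Il16, a chemoattractant that binds CD4 and is unrelated to the cytokines above, had 13.1 and 15.5 CPM against 16.8, 16.7 and 15.8 CPM and a log2 fold change of -0.21 (adjusted p = 0.477, edgeR's quasi-likelihood test). On the opposite strand, Stard5 and 2310044K18Rik overlap 17.4% of the exonic bases of Il16. Il4i1, an amino acid oxidase induced by IL-4, had 2 and 3 reads against 6, 1 and 3, and 86.3% of its exonic bases overlap other genes.

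**Figure D4:**
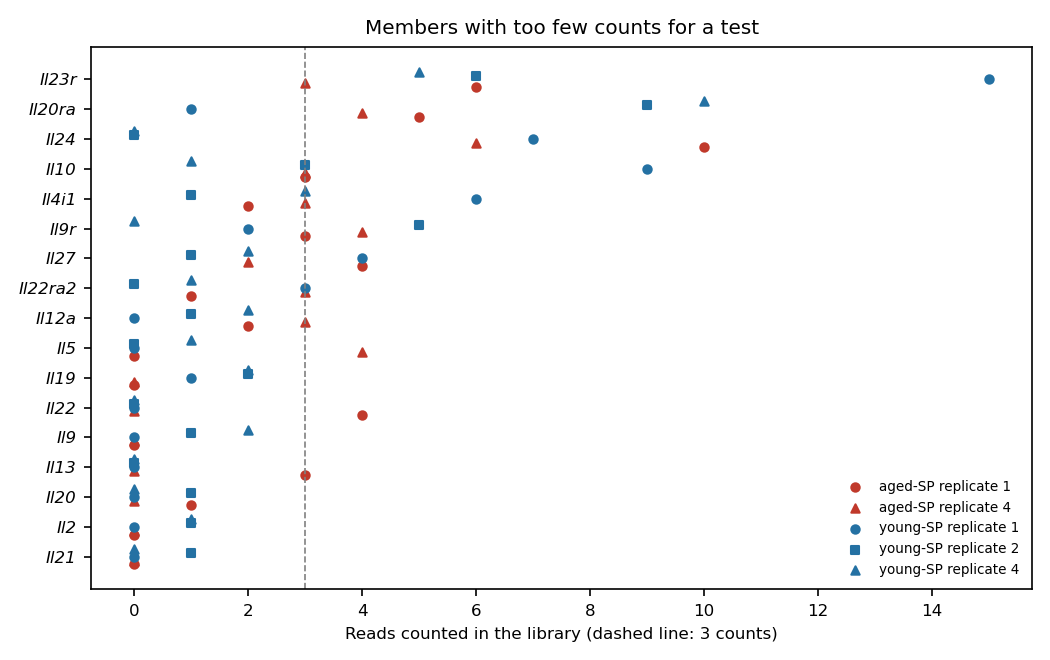
Reads per library for the 17 genes with too few counts for a test (red for aged-SP, blue for young-SP), with a dashed line at 3 counts, the number that a count of 0 allows. Of the 17 genes, 8 had at most 3 reads in every library, 7 of them cytokines, and the largest count was 15, for Il23r in young-SP replicate 1.

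Of the 18 cytokine genes, 12 were thus not tested, and none of these 12 had more than 10 reads in a library. Of the 23 receptor chains, 4 were not tested (Il20ra, Il9r, Il22ra2 and Il23r).

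The genes downstream of these receptors were taken from lists that also followed earlier results of these data. Of 11 JAK and STAT genes, 2 were higher (Stat3 and Stat6) and 1 was lower (Stat4) at an unadjusted p under 0.05 by edgeR's quasi-likelihood test, against 9.62% higher and 9.36% lower among all tested genes. Stat6, which transmits IL-4 and IL-13 signals, had 107 and 109 CPM in the aged-SP uteri and 93.1, 84.7 and 90.3 CPM in the young-SP uteri, a log2 fold change of 0.27 (adjusted p = 0.194). Stat4, which transmits IL-12 signals, had 18 and 11 reads against 26, 31 and 30, a log2 fold change of -1.01 (adjusted p = 0.210). Stat3, which serves IL-10, IL-22 and many other cytokines, had a log2 fold change of 0.47 (adjusted p = 0.200). None of the 3 genes overlapped between the groups, but they were picked by their small p, which favours genes with separate groups. Of all 11 genes, 6 did not overlap (54.5%, against 38.8% of all tested genes), and Jak1, Jak2 and Stat5b were the others.

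Among 14 negative regulators, Socs2, Cish and Socs6 were higher at an unadjusted p under 0.05 and 0 were lower. That is 21.4% of the list, near the 19.0% of all tested genes. Socs2 and Cish are known targets of STAT5. Socs2 had 113 and 71.7 CPM in the aged-SP uteri and 54.9, 55.3 and 46.1 CPM in the young-SP uteri, a log2 fold change of 0.83 (adjusted p = 0.139 by edgeR's quasi-likelihood test, 0.0158 by DESeq2). Cish had 16.4 and 10.1 CPM against 9.07, 5.56 and 6.14 CPM, a log2 fold change of 0.94 (adjusted p = 0.210 by edgeR's quasi-likelihood test). In both genes aged-SP replicate 1 was the highest. Of 7 tested partner chains and related cytokines without an Il name, Osmr and Csf2rb2 were higher and 0 were lower. These are 28.6% of the 7, against 19.0% of all tested genes. The common beta chain Csf2rb itself had a log2 fold change of 0.23 (unadjusted p = 0.335 by edgeR's quasi-likelihood test).

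Of 11 genes known to respond to IL-4 and IL-13, 2 were higher at an unadjusted p under 0.05 and 0 were lower. The share, 18.2%, was near that of all tested genes, 19.0%. Retnla had 44.2 and 49.6 CPM in the aged-SP uteri and 8.38, 17.8 and 7.61 CPM in the young-SP uteri, which is a log2 difference of 2.05 (standard error 0.38, adjusted p = 0.0905 by edgeR's quasi-likelihood test, 1.93e-05 by DESeq2, which called it). Chil4 had 196 and 46 reads against 9, 0 and 1, a log2 fold change of 5.09 (adjusted p = 0.114 by edgeR's quasi-likelihood test, 0.0607 by DESeq2). Both are genes of alternatively activated macrophages and of epithelium. The other 9 genes of the list, among them Arg1, Mrc1, Ccl11 and Postn, had an unadjusted p of 0.05 or more, and their values lay on both sides of 0. Of 7 macrophage markers, 0 had an unadjusted p under 0.05, and their summed level was 587 and 934 CPM against 976, 474 and 684 CPM.

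**Figure D5:**
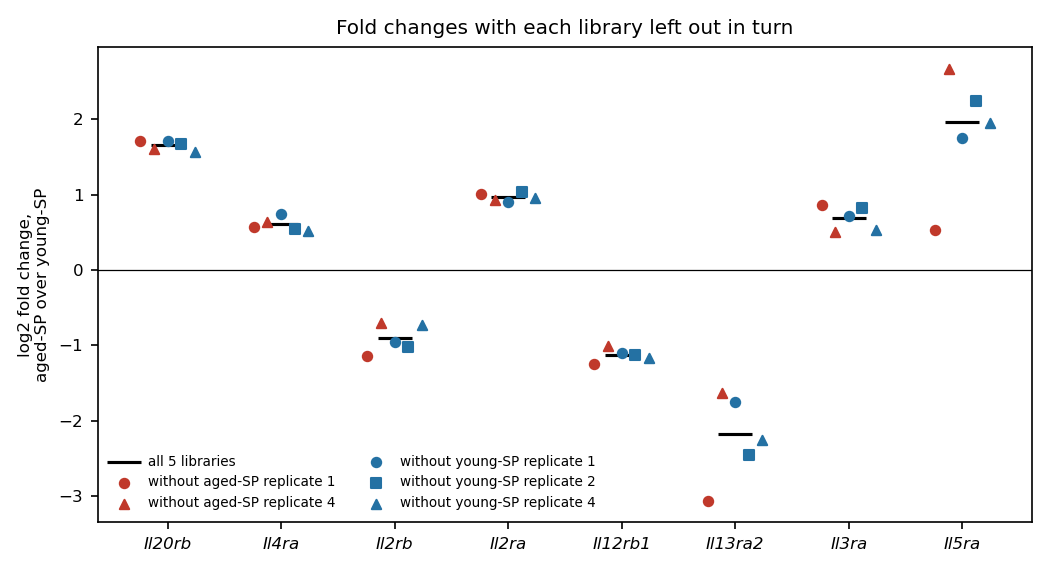
Log2 fold change, aged-SP over young-SP, for the 8 genes with an unadjusted p under 0.05, from all 5 uteri (black bars) and with each uterus left out in turn (coloured by the group and shaped by the replicate left out). All points of a gene stay on 1 side of 0, the points of Il20rb lie between 1.57 and 1.72, and those of Il5ra are spread from 0.53, without aged-SP replicate 1, to 2.67.

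The first principal component of the 25 tested genes held 51.9% of their variance. The aged-SP uteri lay at -3.07 and -1.97 on it, young-SP replicate 1 at 0.45, and young-SP replicates 2 and 4 at 2.27 and 2.32. On the second component, which held 28.1%, young-SP replicate 1 lay at 2.80 and the other 4 uteri between -1.88 and 0.54.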

How the data were processed

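RNA of whole uteri of 2 aged-SP and 3 young-SP females was analysed, with groups taken from the sample labels. The labels name a NEBNext Ultra library kit, which does not mark strand, and the submitters' processing notes name HISAT2 2.1.0, Bowtie2 2.2.3 and HTSeq 0.6.0. The authors deposited 1 count per gene and library, not normalized, and the genome build is not given in the sources used here. The positions of 41 of the 42 genes are those of GENCODE M21 on GRCm38, Il2rb being the exception. The deposited FPKM are counts divided by gene length and total count. The deposited table also holds the authors' mean signal after DESeq2 scaling and their log2 fold changes, p-values and adjusted p-values, none of which were used. There were 0 columns with values per sample left unused. Total counts lay between 15071914 and 16728601, and count floors cover counting error only.

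Counts were tested over the whole table with edgeR 4.0.16 (filterByExpr, TMM, glmQLFit, glmQLFTest) in R 4.3.3, with Benjamini-Hochberg adjustment. Standard errors are the absolute log2 fold change divided by the square root of the F statistic. CPM values are counts scaled to a common library size after TMM. Ratios of genes were taken from FPKM. Overlap of genes was measured on GENCODE M21 exons and on shared stretches of 50 bases. Alternatives were DESeq2 1.42.0, its size factors in edgeR, library size alone, limma-voom (limma 3.58.1), no filter, at least 10 counts in every library, a replicate block, the adjusted p alone, and each library left out. Every gene taken by the rule is named, with values per library for the 10 smallest p-values, the 5 highest FPKM, called genes and the main cytokines and their receptors. Other lists are described by counts, with called genes and those of the smallest p named. The members, the 15 cell type marker lists and the other lists were chosen with earlier results of these data known. The ratio of Il20rb to a further epithelial marker is not reported here.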

Additional observations from a re-analysis of the deposited data

How the results depend on the processing

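The number of called genes among all tested was 25, and it was 632 with DESeq2, 203 without a filter on low counts and between 1 and 578 with each library left out (1 without aged-SP replicate 1, 49 without aged-SP replicate 4, and 578, 3 and 2 without young-SP replicates 1, 2 and 4). Of the 25 interleukin and receptor genes, 0 were called, 2 with DESeq2, 1 (Il20rb) without a filter and between 0 and 1 with each library left out. The number with an unadjusted p under 0.05 was 8, and between 3 and 12 with each library left out. The median log2 fold change was 0.39, 0.21 for the 21 genes with at least 10 counts in every library, and between 0.074 and 0.53 with each library left out. Where 1 aged-SP library was left, it was assumed to vary like the young-SP group. Replicate numbers 1 and 4 occur in both groups. The deviations of same-numbered libraries from their group means correlated at 0.15 and 0.14 over genes. The deviations of the 2 aged-SP libraries are exact opposites, so that these 2 correlations are not independent. With 2 pairs and no statement in the labels, they do not establish a pairing. With a replicate block, 2 of all genes and 0 of the 25 were called, and the log2 fold change of Il21r was -0.038. Signs changed with a library left out for Il12b (-0.24 to 2.80), Il7 (-0.13 to 0.36), Il2rg (-0.14 to 0.35), Il23a (-0.33 to 0.38), Il4 (-0.27 to 0.27), Il21r (-0.041 to 0.43) and Il22ra1 (-0.080 to 1.59). The cause of these changes was not tested.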
